A study of Homo sapiens with 42 samples.

Results

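TadA-8e is a laboratory-evolved adenosine deaminase: it turns adenosine into inosine, which sequencing reads as G, so that an A-to-G change in a read marks an adenosine the enzyme has reached. Here the enzyme carried a nuclear localisation signal (NLS), and the same kind of cell was read out through 2 kinds of library, from RNA depleted of ribosomal RNA and from RNA captured by its poly(A) tail. All sites listed for the nuclear enzyme in HEK293T cells were taken. The rRNA-depleted table held 340436 sites under 8780 gene names and the poly(A) libraries gave 574863 sites under 9241 names. A site counted as shared when both tables listed the same chromosome, position and strand: 214315 sites were shared, of 700984 in either table and of 1495095 in any bulk poly(A) or rRNA-depleted table of the series. Genes were compared where at least 5 shared sites carried the same single gene name in both tables, which left 4911 genes.

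Both groups were wild-type HEK293T cells, a human embryonic kidney line carrying the SV40 T antigen, with transient expression of NLS_TadA-8e_GFP from a transfected plasmid, and GFP-positive cells were sorted before RNA was extracted. Each group had 2 libraries, made with the same stranded kit, either after capture on beads that bind poly(A) tails or after removal of rRNA with a depletion kit. What limits the model is that the enzyme came from a transient plasmid in sorted cells, that the labels do not say whether the replicates were separate cultures, and that the labels do not tie a poly(A) library to an rRNA-depleted library of the same cells. p-values therefore measure only the spread between these libraries, which may be technical. Each value is the fraction of changed reads at a site in 1 library, given here as a rate in percent. The tables hold no read counts, so the depth behind each rate is unknown, and no interval for a rate can be given. Of 8 HEK293T markers, 5 had sites in each table (NEFL had 27 in the poly(A) table and 31 in the rRNA-depleted table), whereas ST18 and PAX2 had none. Of 13 markers of the K562 line, 0 had a poly(A) site and EPOR alone had an rRNA-depleted site.

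Most messenger RNAs end in a poly(A) tail that is added in the nucleus when the transcript is cut. Replication-dependent histone mRNAs end in a stem-loop instead, and RNAs made by RNA polymerase III, such as 7SK, end without an added tail. MALAT1, a nuclear speckle RNA, and the long form of NEAT1, a scaffold of nuclear paraspeckles, end in a triple helix with an A-rich tract encoded in the genome. The short form of NEAT1 is polyadenylated. Unfinished transcripts also lack the tail. An rRNA-depleted library therefore reads RNA that poly(A) capture leaves behind, along with the polyadenylated RNA that both read.

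The sequences of microRNA hairpins that lie within transcripts show site by site how the tables differ. They are RefSeq hairpins (GRCh38.p14), written 5′ to 3′, and capitals mark the adenosines listed in the named table. Of 1562 hairpins searched, 30 held rRNA-depleted sites and 27 held poly(A) sites, 16 of them in both. These 4 were picked after their values were seen, as they show sites in both tables, in 1 table and at like rates. MIR3064 lies in DDX5, an RNA helicase gene, at chr17:64500774-64500839 on the minus strand. MIR6501 lies in SON, a nuclear speckle protein gene, at chr21:33550662-33550728 on the plus strand. MIR1248 lies in EIF4A2, a translation initiation helicase gene, at chr3:186786672-186786777 on the plus strand. Its listed sites carry the names EIF4A2 and SNORA81, a snoRNA gene, so its rates need not be those of the EIF4A2 mRNA. MIR1292 lies in NOP56, a nucleolar protein gene, at chr20:2652777-2652842 on the plus strand.
MIR3064, rRNA-depleted: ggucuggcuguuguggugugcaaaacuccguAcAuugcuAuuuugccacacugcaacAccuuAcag
MIR3064, poly(A): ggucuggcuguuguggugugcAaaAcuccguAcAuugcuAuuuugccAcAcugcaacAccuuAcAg
MIR6501, rRNA-depleted: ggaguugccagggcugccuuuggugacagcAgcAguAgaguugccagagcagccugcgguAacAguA
MIR6501, poly(A): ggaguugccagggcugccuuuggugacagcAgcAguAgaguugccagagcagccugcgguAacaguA
MIR1248, rRNA-depleted: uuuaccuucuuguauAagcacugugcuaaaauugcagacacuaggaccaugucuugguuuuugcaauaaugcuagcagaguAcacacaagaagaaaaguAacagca
MIR1248, poly(A): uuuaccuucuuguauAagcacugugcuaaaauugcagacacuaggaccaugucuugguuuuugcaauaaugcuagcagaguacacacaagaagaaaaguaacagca
MIR1292, rRNA-depleted: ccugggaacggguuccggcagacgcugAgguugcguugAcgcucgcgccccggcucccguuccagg

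In MIR3064 the 5 rRNA-depleted sites were all shared, and the poly(A) table listed 5 more. Counting from the 5′ end, position 32 read 57.4% and 63.3% in the rRNA-depleted libraries and 67.2% and 63.1% in the poly(A) libraries. Position 34 read 47.6% and 43.8% against 41.7% and 40.9%. Both positions were predicted unpaired by RNAfold; the library types overlapped at the former and not at the latter. At position 40, also predicted unpaired, the rates were 19.7% and 20.97% against 11.3% and 12.8%, and the groups did not overlap. The poly(A)-only sites were weak: position 25 read 1.90% and 2.06%, and position 65, the highest of them, 4.11% and 5.07%. In MIR6501 the strongest site, position 34, read 46.9% and 53.2% in the rRNA-depleted libraries and 57.3% and 54.4% in the poly(A) libraries, so the poly(A) rates were the higher there. At position 16 of MIR1248 the rRNA-depleted rates were 41.2% and 44.4% and the poly(A) rates 13.5% and 14.8%, and MIR1292 had poly(A) sites at none of its adenosines. Over the 30 hairpins with rRNA-depleted sites, 44 of 68 such sites (64.7%) lay at adenosines predicted unpaired, against 200 of all 424 adenosines (47.2%) in the same hairpins. Among the poly(A) sites in hairpins the unpaired share was lower and nearer to that of all adenosines. No preference of the enzyme is therefore read from these shares. All 68 rRNA-depleted and 99 poly(A) sites in hairpins, with 40 positions shared between them, fell on an A of the RefSeq strand.

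The rRNA-depleted libraries listed fewer sites at higher rates. Over the shared sites the mean rate was 18.7% and 19.03% in the rRNA-depleted libraries and 9.03% and 9.36% in the poly(A) libraries, a difference of 9.65 percentage points that was far larger than the SD between replicates (0.259 and 0.228 points, n = 2 each). The two-sided exact permutation p was 0.33, the smallest that 2 libraries a group can give. At 189404 shared sites (88.4%) both rRNA-depleted rates lay above both poly(A) rates, and at 2498 (1.17%) both lay below. Shared sites made up 63.0% of the rRNA-depleted table and 37.3% of the poly(A) table. Sites listed in 1 table alone averaged 19.1% in the rRNA-depleted table and 8.57% in the poly(A) table. Across the shared sites, Pearson's r was 0.916 between the poly(A) libraries, 0.860 between the rRNA-depleted libraries and 0.748 to 0.769 between library types. These correlations are across sites, which share transcripts and libraries and are not independent.

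The balance of sites varied between chromosomes. Chromosome 19 had 28775 rRNA-depleted and 25826 poly(A) sites, or 1.11 rRNA-depleted sites per poly(A) site, and chromosome 22 had 0.982. At the other end stood chromosome 13 with 0.318, chromosome 18 with 0.377 and chromosome 4 with 0.388. The mitochondrial chromosome held 15 poly(A) sites (in COX1 and RNR2, from 0.0369% to 2.49%) and 1 rRNA-depleted site, in ND6.

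In the plot of gene means, nearly all of the 4911 genes lay above the line of equal rates. The median gene read 22.6% and 22.96% in the rRNA-depleted libraries and 9.85% and 10.3% in the poly(A) libraries, a shift of 1.17 on the log2 scale (2.26-fold). As deposited, 4814 genes (98.0%) passed the test upward and 8 (0.163%) downward, at a Benjamini-Hochberg adjusted p under 0.05 in limma on log2 mean rates, so 99.8% of the calls were higher. The amount of enzyme, the depth and the RNA read by each library type cannot be told apart in that shift. Gene changes are given relative to the median gene of each library. On that scale 1008 genes (20.5%) were higher and 1296 (26.4%) lower in rRNA-depleted RNA, so 43.75% of the calls were higher, and 2607 did not pass.

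**Figure D1:**
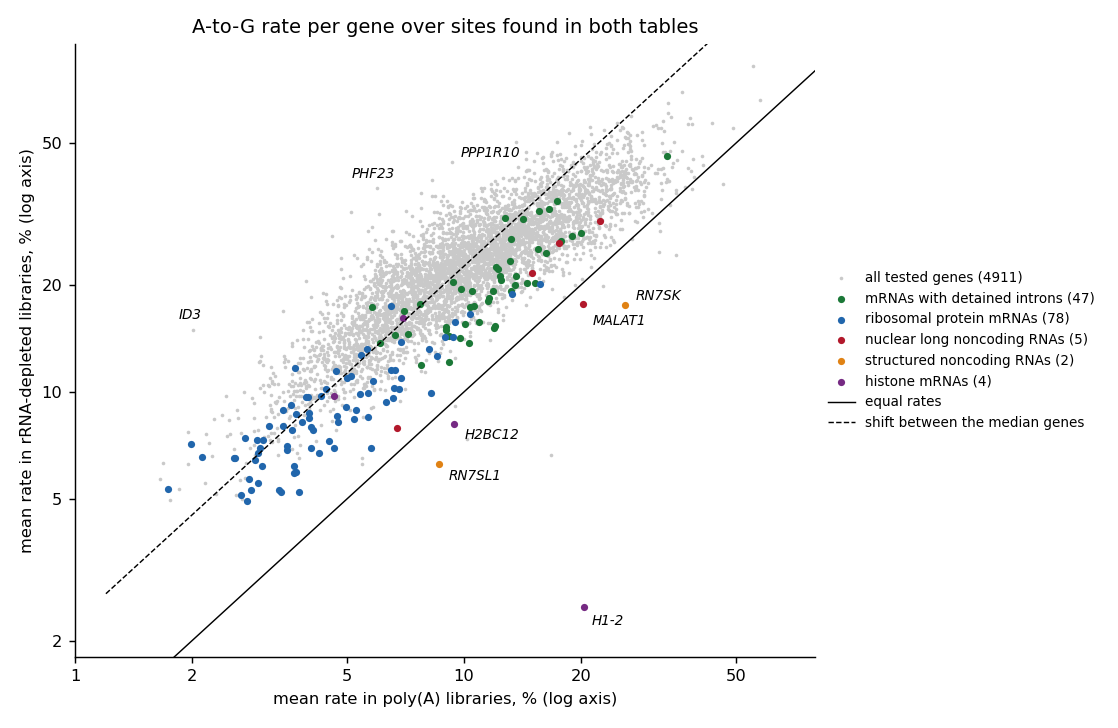
Mean A-to-G rate per gene over shared sites, in percent on log axes, in the poly(A) libraries (x) and the rRNA-depleted libraries (y), each the mean of 2 libraries. Grey points are all 4911 tested genes and coloured points are members of 5 lists; the solid line marks equal rates and the dashed line the shift of 2.26-fold between the median genes. H1-2, RN7SK, RN7SL1, H2BC12 and MALAT1 lie below the line of equal rates.

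The relative change went with the level. Among the quintile of genes with the lowest mean rate over the 4 libraries (2.95% to 10.3%), 433 were higher and 143 lower, and their median fold as deposited was 2.51. Among the quintile with the highest rate (21.7% to 67.3%), 19 were higher and 505 lower, with a median fold of 1.75. The lowest quintile also had the most shared sites per gene (median 57, against 11 in the highest). A list whose members have high rates can therefore lie low on the relative scale, and lists are also set against genes of like rate, that is, of the same quintile of rate. A rate cannot exceed 100%, and what part that bound plays was not tested.

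The genes with the lowest relative change included 3 noncoding RNAs, RN7SK, RN7SL1 and MALAT1, among 10. The named genes are the 10 largest changes in each direction with at least 10 shared sites and no overlap between library types on the relative scale. All 20 passed the test, but for RN7SK, RN7SL1 and MALAT1 no support is drawn from it, for the reason given below. RN7SK, the 7SK RNA that holds the elongation factor P-TEFb inactive (chromosome 6, 52995620 to 52995951), read 17.4% and 17.6% in the rRNA-depleted libraries and 26.7% and 25.2% in the poly(A) libraries over 40 shared sites. Both rRNA-depleted values lay below both poly(A) values, even before the shift was taken out. Its relative change was -1.74 ± 0.08 (log2, SE). RN7SL1, the RNA of the signal recognition particle, read 6.15% and 6.37% against 9.51% and 7.78% over 13 sites, a relative change of -1.63 ± 0.14. Both RNAs have many near-identical copies in the genome, so the values could be shared among copies. NDRG1, a stress-responsive cytoplasmic protein gene, read 6.65% and 8.07% against 8.06% and 12.3%, with a relative change of -1.62 ± 0.18; as deposited its groups overlapped. MALAT1 (chromosome 11, 65497738 to 65506516) read 17.4% and 17.99% against 21.2% and 19.3% over 272 sites, with a relative change of -1.37 ± 0.05. For RN7SK, RN7SL1 and MALAT1 the values are descriptions. For RN7SK and MALAT1 the poly(A) libraries listed 40 and 274 sites and the rRNA-depleted libraries 56 and 1350. All 13 poly(A) sites of RN7SL1 were shared, while RNAs of its RefSeq class (scRNA) had 91 rRNA-depleted sites. In these 3 RNAs the shared sites were thus chosen mainly by being strong enough in poly(A) RNA to be listed.

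The other genes of this group were mRNAs. H2BC12, a histone H2B gene, is described with the histones. HOXD10, a homeobox transcription factor gene, read 17.9% and 21.7% against 21.7% and 23.9%. TAOK1, a kinase gene, read 25.3% and 31.5% against 37.2% and 26.6%. CCDC88A, which encodes the actin-binding protein girdin, read 29.3% and 30.5% against 32.7% and 30.8%. SOX4, a transcription factor gene, read 8.67% and 9.54% against 8.94% and 9.98%, and YOD1, a deubiquitinase gene, 25.8% and 27.8% against 26.5% and 27.5%. Relative to the median gene HOXD10, TAOK1, CCDC88A, SOX4 and YOD1 were lower, but none of these 5 passed the test as deposited (limma adjusted p from 0.14 to 0.92). Their relative changes ran from -1.38 to -1.18 on the log2 scale.

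The 10 genes with the highest relative change read below 10% in the poly(A) libraries, where the median gene read 9.85% and 10.3%. Their choice by relative change favours low poly(A) rates. ID3, an inhibitor of basic helix-loop-helix transcription factors, read 15.7% and 14.2% in the rRNA-depleted libraries and 2.12% and 1.89% in the poly(A) libraries over 13 sites. Its relative change was 1.72 ± 0.14 (limma adjusted p = 1.06e-07), the highest of the 4911 genes. PHF23, a PHD finger gene, read 37.5% and 37.1% against 5.81% and 6.13%. PPP1R10, which encodes the nuclear protein phosphatase 1 subunit PNUTS, rested on 58 sites and read 44.3% and 44.1% against 9.65% and 8.92%, a relative change of 1.08 ± 0.08. PAGR1, a component of histone H3K4 methyltransferase complexes, read 29.1% and 34.0% against 5.25% and 6.82%. POLR2L, an RNA polymerase subunit gene, read 17.9% and 23.1% against 4.28% and 3.54%. SNRNP25, a protein of the minor spliceosome, read 24.5% and 25.9% against 5.92% and 5.46%. The rest were MRPS33 and MRPL20 of the mitochondrial ribosome, SPCS1 of the signal peptidase and PDCD5, with relative changes of 1.15, 1.02, 1.06 and 1.02. In all 10 the library types stood far apart.

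Of 20 nuclear long noncoding RNA symbols, 5 had enough shared sites, and all 5 were lower on the relative scale, against 26.4% of all genes. Their median was -0.74, against -0.04 over all genes. MALAT1 is among the 5 and was the only member lower as deposited, but its value is a description, as stated above. TUG1, a chromatin-associated RNA, read 27.0% and 25.3% in the rRNA-depleted libraries and 17.8% and 17.3% in the poly(A) libraries, a relative change of -0.60 ± 0.07. PVT1, the host RNA next to MYC, read 31.9% and 28.4% against 20.9% and 23.7%, or -0.74 ± 0.13 relative. In both, the rRNA-depleted values lay above the poly(A) values as deposited. All 5 also lay below the median of genes of like rate. Among small structured RNAs, 2 of 27 symbols could be tested, RN7SK and RN7SL1, and 11 had sites in the rRNA-depleted table only. Of 14 tested RNAs that host snoRNAs in their introns, 8 were lower and 0 higher (26.4% and 20.5% of all genes), with a median of -0.21. Fewer were lower without poly(A) replicate 1. Against genes of like rate the median was -0.31, with 10 of the 14 below. Here SNHG1 read 22.2% and 21.6% against 12.5% and 12.8% (-0.38 ± 0.04), and SNHG15 23.6% and 24.2% against 15.3% and 15.8% (-0.55 ± 0.06). SNHG29 read 7.41% and 7.56% against 3.46% and 3.83%, and its call (-0.14, limma adjusted p = 0.0474) was lost whichever of the 4 libraries was left out.

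In MALAT1 and NEAT1 the rRNA-depleted table listed many sites that the poly(A) table did not. MALAT1 had 1350 rRNA-depleted sites and 274 poly(A) sites, of which 272 were shared. The shared sites were the strong ones: sites listed only in rRNA-depleted RNA read 5.22% and 5.32%, whereas the shared sites read 17.4% and 17.99% in the same libraries. At 131 of the 272 shared sites (48.2%) both rRNA-depleted rates lay below both poly(A) rates, against 1.17% of all shared sites. The MALAT1 sites were chosen mainly by their poly(A) rate, which favours that order, so this contrast is a description. NEAT1 (chromosome 11, 65422798 to 65445540) spans 22743 bases. Its poly(A) sites, 229 in number, which the poly(A) table names by the neighbouring gene FRMD8, ended 3637 bases from the 5′ end. Beyond that point there were 0 poly(A) sites and 856 rRNA-depleted sites, at 8.39% and 8.11%. Up to that point the rRNA-depleted table listed 302 sites. The 186 sites shared there read 10.1% and 10.4% in the rRNA-depleted libraries and 10.8% and 11.1% in the poly(A) libraries, so that the rRNA-depleted values lay slightly below.

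**Figure D2:**
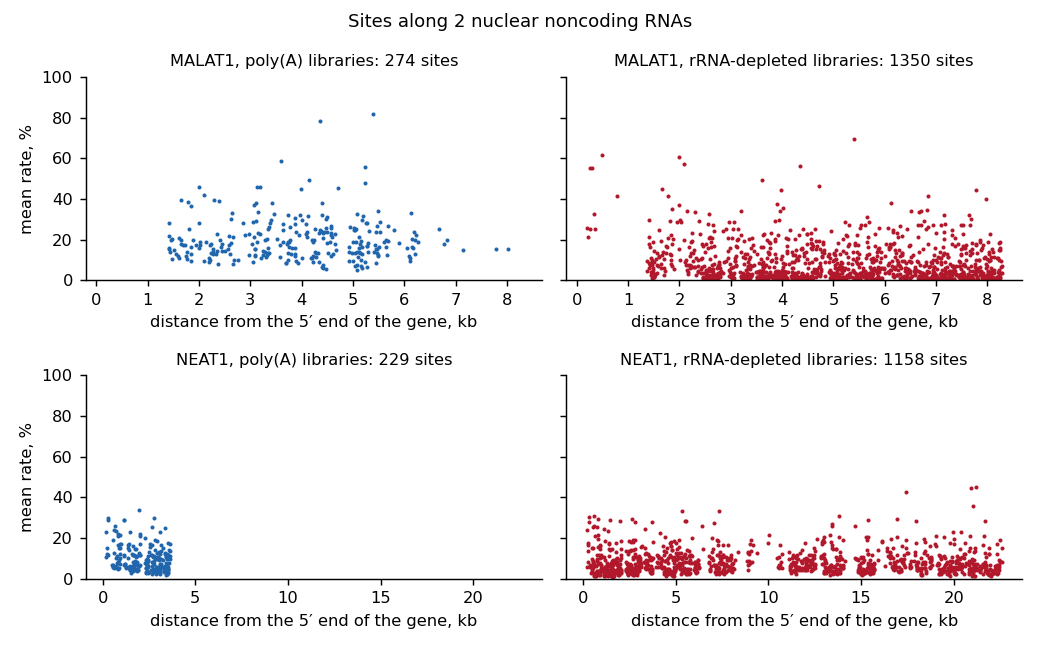
Mean rate in percent of each listed site (mean of 2 libraries) against its distance from the 5′ end of MALAT1 (top) and NEAT1 (bottom), in the poly(A) table (left) and the rRNA-depleted table (right). Poly(A) sites of NEAT1 stop at 3637 bases while rRNA-depleted sites run along its whole length, and MALAT1 has many rRNA-depleted sites of low rate that the poly(A) table lacks.

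Of 66 histone symbols, 34 had sites in neither table, 32 had rRNA-depleted sites, 10 had poly(A) sites, and 22 had sites in the rRNA-depleted table only. Those 22 had 226 sites, counted once for each gene named, at low mean rates: the median gene read 2.61% and the range ran from 1.201% to 16.5%. H3C2 had 27 sites at 1.98% and 2.11%, H4C3 26 sites at 3.57% and 2.59%, and H1-4 22 sites at 1.72% and 2.201%. H1-2, H2AC6 and H2BC17 had few poly(A) sites, at high rates. H1-2, a linker histone gene (chromosome 6, 26055740 to 26056470), had 8 poly(A) sites at 21.5% and 19.2%. The same 8 sites read 2.71% and 2.27% in the rRNA-depleted libraries, and 27 more sites listed there read 1.52% and 1.29%. At each of the 8 sites both rRNA-depleted rates lay below both poly(A) rates, and the gene stood at -4.21 relative to the median gene. This is a description with no test, since the 8 sites compared are those whose poly(A) rates were high enough to be listed. H2AC6 showed the same order with 3 poly(A) sites at 42.6% and 61.9% and 10 rRNA-depleted sites at 4.37% and 4.43%, and H2BC17 with 3 at 52.3% and 44.9% and 23 at 2.83% and 2.44%. H1-10, a linker histone gene whose mRNA is polyadenylated, did not pass the test: it read 16.3% and 15.9% against 6.93% and 7.01%.

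H2BC12 showed both patterns within its interval. In the 1000 bases at its 5′ end (chromosome 6, 27145859 to 27146858, minus strand), 38 shared sites read 5.03% and 5.34% in the rRNA-depleted libraries and 8.73% and 8.81% in the poly(A) libraries, and at 29 of them both rRNA-depleted rates lay below both poly(A) rates. In the 7566 bases further 3′, 10 shared sites read 18% and 20.4% against 11.6% and 12.3%, and at 9 of them the rRNA-depleted rates lay above. Over all 48 sites the gene read 7.73% and 8.48% against 9.33% and 9.54%. This split was made after the values were seen.

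Transcripts with detained introns stay in the nucleus polyadenylated but incompletely spliced. The list of genes known for them holds mostly splicing factors and RNA-binding proteins, along with others such as MAT2A, OGT and OGA. Of the 47 tested, 34 were lower and 1 higher relative to the median gene (26.4% and 20.5% of all genes), though all 47 were higher as deposited. Their median was -0.46, and 40 lay below the median of genes of like rate. DDX17, an RNA helicase gene, read 12.1% and 11.7% in the rRNA-depleted libraries and 7.77% and 7.69% in the poly(A) libraries over 477 sites, a relative change of -0.55 ± 0.03 (limma adjusted p = 1.16e-08). HNRNPH1, a splicing regulator gene, read 17.8% and 18.3% against 11.1% and 11.9%, or -0.53 ± 0.03. SRRM2, which encodes a core protein of nuclear speckles, did not pass at 14.1% and 14.8% against 6.54% and 6.76%. The lowest members were PNN and LUC7L3 (-0.83 each), both encoding splicing-related proteins, and the single higher member was SRSF2 (0.41), an SR splicing factor gene. The number lower ran from 30 to 35 over every alternative other than the rates as deposited, where it was 0.

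mRNAs of the translation machinery did not move together. Of 78 tested ribosomal protein mRNAs, 45 were lower and 11 higher relative to the median gene (26.4% and 20.5% of all genes), with a median of -0.25. That direction rested on how site rates were averaged within a gene: with the median of site rates in place of the mean, 10 were lower and 31 higher, and with the mean of log2 rates 21 and 29. Without the variance trend in limma 38 were lower and 4 higher. Of the 78, 71 belonged to the quintile of lowest rate, where 143 of 983 genes were lower and 433 higher. Against genes of like rate the median was -0.36, with 63 of 78 below. The number higher was 6 without poly(A) replicate 2 and 7 without rRNA-depleted replicate 2. RPL3 read 9.80% and 9.89% against 5.36% and 5.47% and stood at -0.31 with the mean and 0.44 with the median of its 303 sites. RPL4 read 4.87% and 5.02% against 2.77% and 2.77%, or -0.34 ± 0.04, and kept its sign under both averages. RPS4X read 5.78% and 6.08% against 3.71% and 3.58% and turned from -0.47 to 0.13. In the list of translation factors, chaperones and other abundant mRNAs, 22 of 42 were higher and 10 lower (median 0.20), against 20.5% and 26.4% of all genes. Of the 42, 40 belonged to the quintile of lowest rate, where 433 of 983 genes were higher, and against genes of like rate the median was 0.09, with 18 below. TUBB4B (0.90), a tubulin gene, and CFL1 (0.82), which encodes cofilin, were among the highest. EEF2, the elongation factor that moves the ribosome along, read 10.6% and 10.8% against 5.58% and 5.65%, and EEF1A1, which delivers tRNA, 7.31% and 7.23% against 4.09% and 4.22%. Both were lower with the mean (-0.25 and -0.37) and higher with the median of site rates (0.39 and 0.20). HSP90AA1, a cytosolic chaperone gene, did not pass with the mean at 7.43% and 7.32% against 3.31% and 3.33%.

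Among secretory and mitochondrial mRNAs more were higher than lower, as among all genes of the quintile of lowest rate (433 higher and 143 lower of 983). Of 56 secretory pathway mRNAs 22 were higher and 4 lower (median 0.10), against 20.5% and 26.4% of all genes. Fewer were lower without poly(A) replicate 1 or without rRNA-depleted replicate 2. PDIA4 (0.80) and HSPA5 (0.68), both chaperones of the endoplasmic reticulum, led them. SCD, a fatty acid desaturase gene, read 9.01% and 9.64% against 3.17% and 3.39%. CANX, the chaperone calnexin, read 7.71% and 7.61% against 3.08% and 3.28%, and its call was lost without rRNA-depleted replicate 1 (limma adjusted p = 0.165) and without poly(A) replicate 1 (adjusted p = 0.09). Of 42 nuclear-encoded mitochondrial mRNAs 20 were higher and 6 lower (median 0.15), against the same shares of all genes. Fewer were lower without poly(A) replicate 1. HSPA9, a mitochondrial chaperone gene, read 12.5% and 12.7% against 4.09% and 4.23%, a relative change of 0.43 ± 0.04. HSPD1, the mitochondrial chaperonin gene, went the other way at 10.2% and 10.0% against 6.18% and 6.35% (-0.48 ± 0.03; 0.01 with the median of site rates). ATP5F1B, an ATP synthase subunit gene, did not pass at 8.84% and 8.97% against 3.91% and 4.09%. Of the secretory mRNAs 35 and of the mitochondrial mRNAs 37 belonged to the quintile of lowest rate, and against genes of like rate their medians were -0.003 and 0.07. Without the variance trend in limma, 13 secretory mRNAs were higher and 0 lower.

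Short-lived mRNAs of early response and stress genes held both ends of the range. Of 33 tested, 14 were lower and 7 higher, against 26.4% and 20.5% of all genes. Of the 33, 12 belonged to the quintile of highest rate, and against genes of like rate the median was 0.008, with 16 below. ID3 and ID1 (1.07), both inhibitors of helix-loop-helix factors, were the highest, and the antiproliferative gene BTG2 (-0.89) and MCL1 (-0.74), a survival factor of the BCL2 family, the lowest. JUN, an AP-1 subunit, read 8.83% and 9.24% against 5.69% and 5.86%, MDM2, the ubiquitin ligase of p53, 20.1% and 20.5% against 13.5% and 13.9%, and CDKN1A, a cyclin-dependent kinase inhibitor, 25.3% and 26.3% against 12.8% and 13.3%. Relative to the median gene these were -0.53, -0.61 and -0.19, and CDKN1A turned to 0.09 with the median of site rates. Among 43 mRNAs of G2 and mitosis 15 were lower and 8 higher (3 without poly(A) replicate 1), among 45 of DNA replication 11 were lower (6 without poly(A) replicate 2) and 11 higher, and among 18 with known sites of the endogenous ADAR enzymes 6 were lower and 6 higher (3 without poly(A) replicate 1). In these 3 lists the medians lay at -0.11, -0.09 and -0.04, near that of all genes (-0.04), and nothing is read from the counts.

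Gene names found in 1 table only were mostly genes with few sites. There were 791 such names in the rRNA-depleted table, and for 683 of them the poly(A) table listed no site inside the gene's interval either. Of these 683, 519 had 1 to 4 sites, 580 were protein-coding and the median rate was 38.5%. Names found only in the poly(A) table numbered 1252, and 1161 of these had no rRNA-depleted site in the interval. Of these 1161, 696 had 1 to 4 sites, 1082 were protein-coding and the median rate was 18.03%. Zinc finger genes with ZNF symbols made up 82 of the 1161 and 19 of the 683. Their share among all listed names was not counted, so nothing is read from these counts. The gene names themselves differ in places between the tables: CSNK1E in the poly(A) table stands as CSNK1E with TPTEP2-CSNK1E in the rRNA-depleted table, and 1117 shared sites carried different names.

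Noncoding RNAs led the genes with sites in rRNA-depleted RNA alone. KCNQ1OT1, an imprinted antisense RNA, had 149 sites at 37.4% and 34.1%. SCARNA2, a guide RNA of Cajal bodies, had 44 sites at 17.2% and 17.1%, TERC, the template RNA of telomerase, 40 at 18.6% and 19.2%, and RPPH1, the RNA of RNase P, 41 at 6.23% and 6.35%. RMRP, the RNA of RNase MRP, had 37 rRNA-depleted sites at 5.67% and 5.84% and 2 poly(A) sites at 29.0% and 29.4%. RN7SL3, a further copy of the signal recognition particle RNA, had 45 sites at 4.09% and 3.99%, and 46 sites at 6.85% and 6.51% carried the name of the rRNA precursor copy RNA45SN2; neither can be told apart from other copies. Protein-coding genes in this group included ZNF460 with 109 sites at 24.0% and 24.0%, COL1A1, a collagen gene, with 42 at 42.9% and 39.7%, and HELZ2 with 40 at 54.7% and 49.3%. The genes with most sites in poly(A) RNA alone were protein-coding: ANKHD1 with 232 sites at 10.7% and 11.6%, HNRNPH2, an RNA-binding protein gene, with 140 at 4.12% and 4.14%, UBXN2A with 94 at 11.3% and 13.01%, and NOC3L, a ribosome assembly gene, with 93 at 7.91% and 8.91%. The poly(A)-only genes named here had lower rates than these 3 protein-coding genes, and no test was made of that difference. Poly(A) rates were the lower over all shared sites too (9.03% and 9.36% against 18.7% and 19.03%). Histone genes with sites in rRNA-depleted RNA alone, such as H3C2 (1.98% and 2.11%), had low rates, so nothing about the genes is read from this order.

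Some rRNA-depleted sites lay far from any poly(A) site. Of the 126121 rRNA-depleted sites that were not shared, 15127 (11.99%) lay over 500 bases from every site listed on that strand in the HEK293T poly(A) tables, and their mean rates of 32.8% and 31.7% were higher than the 18.1% and 17.8% of the 74031 sites within 500 bases. The remaining 36963 stood at sites listed in poly(A) RNA with another construct. With the cytoplasmic enzyme, 15.8% of the distant sites were also listed in rRNA-depleted RNA. NEAT1 had the most distant sites (833), followed by KCNQ1OT1 with 149, the joint name CSNK1E with TPTEP2-CSNK1E with 110 at 44.4% and 42.3%, and ZNF460 with 109. Next came KMT2D, a histone methyltransferase gene, with 99 sites at 25.99% and 24.5%, AHNAK with 97 at 25.2% and 23.7%, and FLNC, a filamin gene, with 96 at 16.97% and 19.3%. Whether such sites lie in introns or exons was not analysed here. Distant sites of higher rate were not particular to rRNA-depleted RNA. By the same measure, 65896 of the poly(A) sites that were not shared (18.3%) lay over 500 bases from rRNA-depleted sites. They read 12.2% and 12.6%, against 7.54% and 7.81% for those within 500 bases.

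The base before the adenosine went with the rate in both library types. Over RefSeq windows around transcript starts (250 bases before to 50 after), 1046 shared sites could be placed. A T before the A had the highest mean rates, 29.2% and 30.0% in the rRNA-depleted libraries and 14.8% and 15.2% in the poly(A) libraries over 532 sites, and an A the lowest, 10.1% and 10.5% against 3.59% and 3.54% over 62 sites. The ratio of the library types fell as the rate rose, from 2.89 after A to 2.35 after C and after G and 1.97 after T. A T preceded 50.9% of the shared sites but 13.97% of all adenosines in these windows. Those adenosines include bases before the starts and windows without any listed site. The shares are therefore not of like sequence, and no preference is read from them. Below, the shared site with the highest rRNA-depleted rate after each base is shown as DNA with 10 bases on each side and the site in capitals, from RefSeq windows (GRCh38.p14), to show the sequence around strongly read adenosines. They lie in PPP2CA at chr5:134226063-134226083 (minus strand), ZFAND5 at chr9:72365168-72365188 (minus), FAM193B at chr5:177554267-177554287 (minus) and ATF3 at chr1:212615012-212615032 (plus).
PPP2CA, T before: ggccgccattAcagagagccg
ZFAND5, C before: agctgtgtgcAtctcctacgc
FAM193B, G before: agggaggatgAcgaacccaac
ATF3, A before: tttcagcaaaAtgatgcttca

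These 4 sites read 88.1% and 97.4% (PPP2CA), 60.4% and 82.4% (ZFAND5), 59.2% and 60.6% (FAM193B) and 28.1% and 30.0% (ATF3) in the rRNA-depleted libraries. In the poly(A) libraries they read 42.3% and 43.6%, 20.3% and 17.8%, 29.3% and 28.6%, and 9.70% and 10.5%. At each both rRNA-depleted rates lay above both poly(A) rates, as at 88.4% of all shared sites, and the choice by rRNA-depleted rate favours that order. Site by site, limma made 0 calls in either direction among the 214315 shared sites relative to the median site (0.0%), with 20704 higher and 38269 lower at an unadjusted p under 0.05. As deposited 156390 sites (73.0%) were higher and 555 (0.259%) lower.

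The same library types were also made with the enzyme carrying a nuclear export signal (NES), which keeps it in the cytoplasm, so the change between library types could be compared between the constructs. Over the 151731 sites in all 4 tables, the poly(A) libraries read 8.85% and 9.17% with NLS and 14% and 13.97% with NES, and the rRNA-depleted libraries 18.5% and 18.99% with NLS and 17.3% and 22.01% with NES. The NES rRNA-depleted replicates lay far apart. In limma on the difference of the changes, relative to the median gene, 788 of 4200 genes (18.8%) had a higher change with NLS than with NES and 715 (17%) a lower change. As deposited these were 2451 and 30. The lists went apart in this test. Of 78 ribosomal protein mRNAs 77 had a higher change with NLS and 0 a lower, and their median change over these sites was 0.03 with NLS and -0.57 with NES. Over all sites shared with NLS the median of this list was -0.25. In this test lists were not set against genes of like rate. Of 44 mRNAs with detained introns 25 had a lower change with NLS and 3 a higher (medians -0.39 and 0.04). Of 38 mRNAs of G2 and mitosis 22 had a lower change with NLS and 2 a higher (medians -0.13 and 0.23).

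ACTG1, a cytoplasmic actin gene, had the largest difference upward: over 149 sites it read 7.62% and 7.57% in rRNA-depleted against 2.22% and 2.29% in poly(A) RNA with NLS, and 2.58% and 4.65% against 7.14% and 7.09% with NES. With NLS the rRNA-depleted libraries were the higher, and with NES the poly(A) libraries. Its change was 0.60 with NLS and -1.53 with NES, a difference of 2.13 ± 0.14. MAT2A, an S-adenosylmethionine synthase gene known for a detained intron, went the opposite way over 7 sites: 50.5% and 42.5% against 29.1% and 28.3% with NLS, and 11.7% and 15.1% against 2.58% and 4.00% with NES, a difference of -2.02 ± 0.26. Its 163 sites shared with NLS read 17.8% and 16.95% against 10.03% and 11.1%, so the 7 were on average stronger sites. The relative change with NLS was -0.46 over either set, while the NES change given here rests on the 7 alone. H1-2 read 10.5% and 17.9% in rRNA-depleted and 41.6% and 40.4% in poly(A) RNA with NES over its 8 sites, so that poly(A) rates were the higher with both constructs. SETD2, a histone H3K36 methyltransferase gene, had 29.9% and 25.7% against 23.8% and 22.9% with NLS and 31.8% and 33.7% against 16.6% and 15.5% with NES over 48 sites. MALAT1 had 0 poly(A) sites with NES, and its 161 rRNA-depleted sites with NES read 0.662% and 0.763%, against 7.68% and 7.87% over 1350 sites with NLS.

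**Figure D3:**
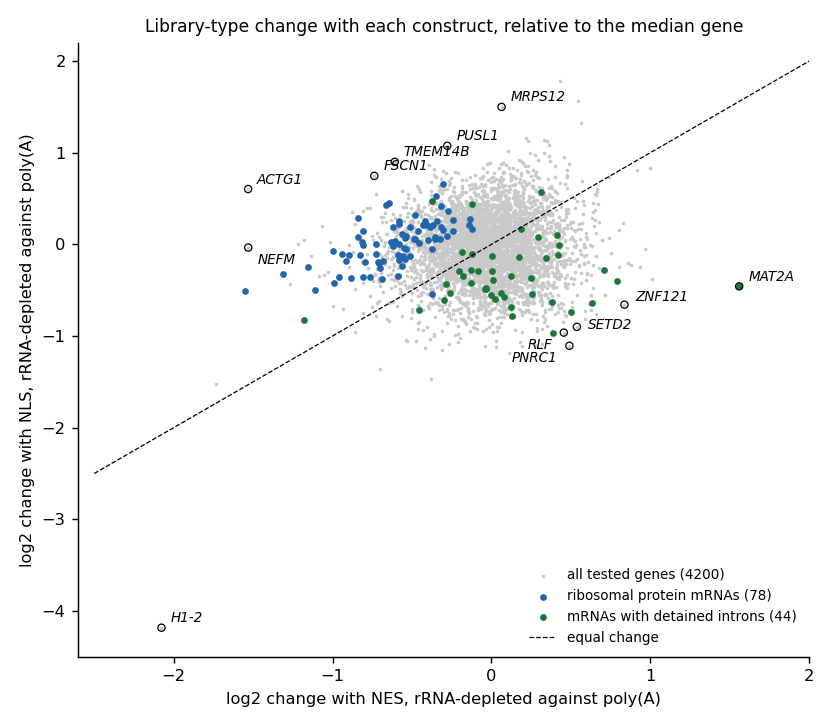
Log2 change in rRNA-depleted against poly(A) RNA, relative to the median gene, with the cytoplasmic enzyme (NES, x) and the nuclear enzyme (NLS, y) for 4200 genes over sites in all 4 tables; circles mark the 12 named genes and the dashed line equal change. Ribosomal protein mRNAs lie left of 0 with NES and around 0 with NLS, and ACTG1 and MAT2A stand at opposite sides.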

How the data were processed

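Per the submitters' processing notes, reads were handled with cutadapt, STAR, Bowtie2 and SAMtools on hg38, with no versions given; how sites were called is not stated there or in the labels. The deposited tables give, for each site, a fraction (changed reads over reads) and the authors' adjusted p-value in each of 2 replicates, with no read counts. All listed sites had an adjusted p-value under 0.05 in both replicates of their table, so a site needs enough reads to be listed, and shared sites are those listed in both tables. Members and gene lists were chosen with earlier results of these data known.

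The rate of a gene was the mean of its shared sites. Log2 rates, centred on the median gene of each library, were then fitted in R 4.3.3 with limma 3.58.1 (two-sided, variance trend on the log2 number of sites, Benjamini-Hochberg, threshold 0.05). Sites were compared as log2(rate + 0.01). Fits were tested on simulated data. Replicates of the same number did not deviate together (r = 0.0153 across 4911 genes), so no pairing was used. Named genes are the 10 largest changes each way, the members of each list with most shared sites (the rule allowed 6; up to 3 a list are given, none of 3 lists given by counts alone; 2 further genes are not reported here), and the 6 largest differences between constructs each way; genes singled out beyond these (such as list extremes, one-table genes and hairpins) were chosen after their values were seen. Of 9789 single gene names, 98.8% matched RefSeq. Hairpins were folded with ViennaRNA 2.7.2; tables were joined in Python 3.11.15 with pandas 2.3.3. Alternatives covered centring, site minimum, gene summary, scale, stricter calls, a replicate block and each library left out. Library means were compared by exact permutation in scipy 1.17.1.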

Additional observations from a re-analysis of the deposited data

Results flagged for a closer look

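For 12 genes the change between library types differed between the nuclear and the cytoplasmic enzyme by the interaction term in limma (Benjamini-Hochberg adjusted p from 1.42e-07 to 0.00311), on the scale relative to the median gene. The change was lower with NLS than with NES by -2.11 for H1-2, -2.02 for MAT2A, -1.60 for PNRC1, -1.495 for ZNF121, -1.44 for SETD2 and -1.42 for RLF. The 8 sites of H1-2 are those with NLS poly(A) rates high enough to be listed, so its value is a description. The change was higher by 2.13 for ACTG1, 1.51 for TMEM14B, 1.495 for NEFM, 1.48 for FSCN1, 1.44 for MRPS12 and 1.35 for PUSL1. SETD2 (48 sites), RLF (26), ACTG1 (149) and FSCN1 (20) rested on 10 or more sites in all 4 tables, and the other 8 on 5 to 8 sites. The NES rRNA-depleted replicates differed in mean rate (17.3% and 22.01%), and the part of that in these differences was not tested; without either of them the signs and calls of all 12 stayed as given.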

How the results depend on the processing

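The tables give no read counts, so the depth behind a rate is unknown and low rates can be listed only where depth allowed; 2 libraries a group limit every test. The causes of the changes given here were not tested. As deposited, without centring, 4814 genes were higher and 8 lower, 156390 sites higher and 555 lower, and the difference between constructs was higher for 2451 genes and lower for 30. Among sites, a pseudocount of 0.001 gave 1 higher and 13 lower, and a deposited adjusted p under 0.001 in all 4 libraries gave 4157 and 10070, where the 0.01 pseudocount over all sites gave 0. With the median of site rates, the difference between constructs was higher for 486 genes. The library difference was 9.27 points as a median over sites and 10.1 points over the stricter sites. Leaving out 1 library at a time gave 735 to 973 genes higher and 930 to 1204 lower, 0 sites in either direction, 537 to 950 and 505 to 826 genes for the difference between constructs, and 9.47 to 9.83 points; where 1 library was left in a group, it was assumed to vary like the others. With a replicate block, by numbers not shown to pair the libraries (r = 0.0153, 2 pairs), 1080 genes were higher and 1377 lower, and 791 and 715 for the difference between constructs. The planned restriction to exonic sites was not run. Gene names of the rRNA-depleted table were an alternative chosen after seeing the data.

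Of the 44 named genes, 19 turned positive as deposited: TUG1 0.58, PVT1 0.44, SNHG1 0.79, SNHG29 1.04, SNHG15 0.62, SRRM2 1.12, DDX17 0.63, HNRNPH1 0.65, JUN 0.65, MDM2 0.57, CDKN1A 0.99, RPL3 0.86, RPL4 0.84, RPS4X 0.70, HSP90AA1 1.15, EEF2 0.93, EEF1A1 0.81, HSPD1 0.69 and ATP5F1B 1.16 (log2). Signs also turned with the median of site rates (SRRM2 0.033, CDKN1A 0.086, RPL3 0.44, RPS4X 0.13, HSP90AA1 0.29, EEF2 0.39, EEF1A1 0.20, HSPD1 0.0079, ATP5F1B 0.13) and with the mean of log2 rates (SRRM2 0.0060, RPL3 0.24, HSP90AA1 0.10, EEF2 0.29, EEF1A1 0.078, ATP5F1B 0.11). The stricter sites turned H1-10 to -0.0034, RPS4X to 0.034, HSP90AA1 to 0.068, EEF2 to 0.067 and ATP5F1B to 0.093. With no minimum of sites SRRM2 was 0.024, HSP90AA1 0.056 and ATP5F1B 0.060. Adding 0.01 before the log turned CANX to -0.049, and the logit turned H1-10 to -0.036 and CANX to -0.057. HSP90AA1 ran from -0.052 without poly(A) replicate 2 to 0.0067 without poly(A) replicate 1.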
